A study of Mus musculus with 36 samples.

Results

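The circular RNAs (circRNAs) of 5 noncoding host genes, Rmst, Snhg11, Meg3, Miat and Snhg14, were examined in the mouse hippocampus and frontal cortex over the light-dark cycle. A circRNA was a member when both of its ends lay inside one of these genes on the strand of the gene, in the GENCODE M21 annotation of GRCm38. Members were 729 of the 33259 circRNAs listed in the 2 tissues, or 2.19%. The hippocampus held 497 of them and the frontal cortex 442, and 210 were found in both, which is 42.3% of the hippocampal and 47.5% of the cortical members. Of all circRNAs listed, 10282 were found in both, or 43.3% and 51.9%. Snhg14 gave 707 members, Meg3 9, Rmst 8 and Snhg11 5, and Miat gave none.

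All samples came from adult male mice kept in a light-dark cycle, of strain C57BL/6 by the labels and C57BL6/N by the methods of the study. Total RNA was depleted of ribosomal RNA and sequenced from whole hippocampi and frontal lobes at Zeitgeber time (ZT, hours after lights on) 1, 5 and 9 in the light phase and 13, 17 and 21 in the dark phase. Each tissue had 3 replicates per time point, 18 samples per tissue and 36 in all. The labels do not say which samples came from one animal, so the p-values measure only the spread between these samples.

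A circRNA arises when a splice donor is joined to an acceptor that lies upstream of it. The read that crosses this head-to-tail junction is the circular read counted here. Rmst is a long noncoding RNA of neural cells that is known to bind the transcription factor Sox2. Snhg11 is a neuronal transcript that carries small nucleolar RNAs (snoRNAs) in its introns. Meg3 is an imprinted transcript made from the maternal chromosome, and Miat is a nuclear RNA of neurons. Snhg14 is made from the paternal chromosome and holds long tandem arrays of box C/D snoRNAs, among them Snord116. It runs antisense into Ube3a, and the introns of the repeated units release the snoRNAs.

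Junction sequences are shown for the circRNAs with the highest read counts in Rmst, Snhg11 and Meg3. In each, the 15 bases before the junction (the donor end) are in lower case and the 15 bases after it (the acceptor end) in capitals, 5′ to 3′ on the strand of the gene. The sequences were read from the GENCODE M21 transcripts of GRCm38. The 5 Rmst junctions show 1 acceptor joined to 5 donors, and the Snhg11 junction is that of nearly all Snhg11 reads.
Rmst chr10:92075170-92136690 (minus strand): gaatggcttcatgagATACTCAGGTTGATG
Rmst chr10:92075513-92136690 (minus strand): cctattcattcaaagATACTCAGGTTGATG
Rmst chr10:92103706-92136690 (minus strand): cttgctcagccaaagATACTCAGGTTGATG
Rmst chr10:92109639-92136690 (minus strand): gttctgcttatcaagATACTCAGGTTGATG
Rmst chr10:92133223-92136690 (minus strand): ccagcaggatggcagATACTCAGGTTGATG
Snhg11 chr2:158382504-158383163 (plus strand): gtgatggttcctcagGTTGCCGTGGACTCC
Meg3 chr12:109561108-109561313 (plus strand): atctgtgcacctgagGACATGCCTGAGAGG

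For Snhg14, 3 whole circles of 147 bases are shown because they are single exons of the Snord116 repeat that differ at few positions. The first is the one with the most reads, and capitals in the other 2 mark the bases that differ from it.
Snhg14 chr7:59676338-59676484 (minus strand): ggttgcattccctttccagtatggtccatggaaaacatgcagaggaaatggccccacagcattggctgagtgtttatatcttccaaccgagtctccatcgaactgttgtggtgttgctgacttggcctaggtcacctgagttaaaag
Snhg14 chr7:59711359-59711505 (minus strand): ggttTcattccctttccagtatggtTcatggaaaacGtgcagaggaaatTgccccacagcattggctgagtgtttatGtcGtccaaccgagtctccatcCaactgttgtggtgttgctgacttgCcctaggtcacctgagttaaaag
Snhg14 chr7:59678859-59679005 (minus strand): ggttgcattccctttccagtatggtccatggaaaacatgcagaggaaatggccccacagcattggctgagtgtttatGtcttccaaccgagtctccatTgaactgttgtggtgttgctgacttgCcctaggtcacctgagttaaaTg

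The depth of the samples set what could be seen. The hippocampus samples held 6754 to 73252 circular reads over all circRNAs listed, and the frontal cortex samples 8107 to 34803. The smallest count above 0 in the files was 2, so a circRNA with 1 read in a sample was listed at 0. Hippocampus ZT1 replicate 3 had the most reads, and hippocampus ZT13 replicate 1 and frontal cortex ZT9 replicate 3 had the fewest of their tissues. Hippocampal marker genes followed the labels. Circular reads of 6 hippocampal marker genes (among them Prox1 and Zbtb20) had a median of 20.8 per 10000 in the hippocampus against 5.02 in the frontal cortex. Among cortical marker genes, Rasgrf2 had 70 circular reads in the hippocampus against 135 in the frontal cortex, Cux2 had 0 against 4, and Tle4 had 187 against 152, more in the hippocampus. Rorb and Lamp5 were listed at 0. Summed marker genes of the striatum, thalamus, oligodendrocytes and astrocytes reached at most 3.67 per 10000 in any sample, and those of the choroid plexus and microglia were listed at 0. In such bulk samples, fewer cells of a type and less RNA per cell cannot be told apart.

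Rmst lies on chromosome 10 from 92071037 to 92165170 on the minus strand and spans 94134 nt. Its 8 circRNAs had 967 circular reads, 486 in the hippocampus against 481 in the frontal cortex. Of these reads, 963 (99.6%) came from circRNAs whose acceptor was position 92136690, the start of an internal exon. The donors differed. The leading circRNA, which joins this acceptor to position 92075170, spans 61521 nt and takes in 10 annotated exon blocks. It was found in all 36 samples, with 403 reads in the hippocampus against 381 in the frontal cortex, which is 82.9% and 79.2% of the Rmst circular reads. The circRNA ending at 92075513 followed with 36 reads in the hippocampus against 43 in the frontal cortex. The one ending at 92103706 had 17 and 30 reads, the one ending at 92109639 had 21 and 15, and the shortest of the series, ending at 92133223, had 5 and 10. In 6 of the 8 circRNAs both ends were annotated exon ends. The other 3 circRNAs of Rmst had 2 reads each. The map of the Rmst circles shows the common acceptor and the spread of the donors.

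**Figure D1:**
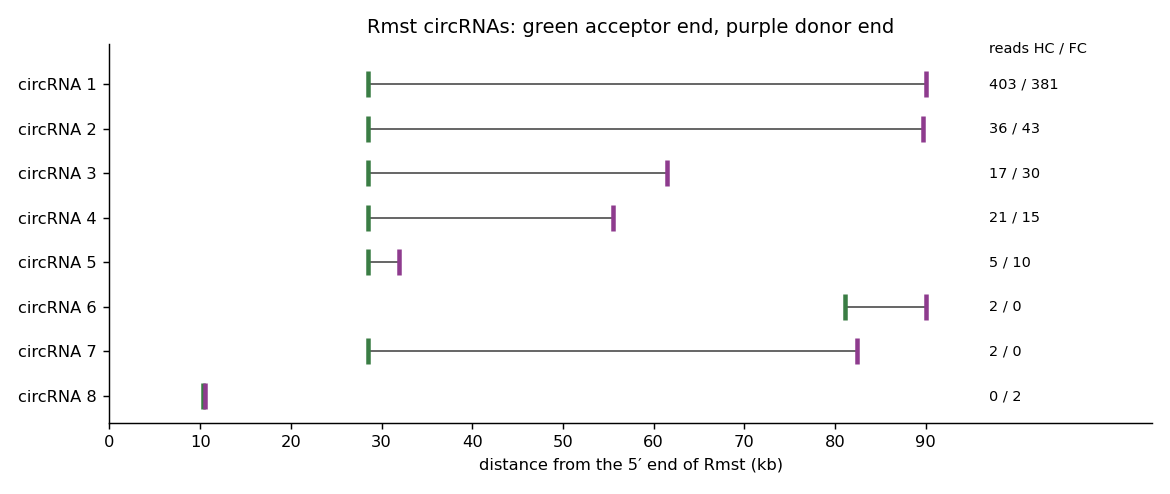
Circular RNAs of Rmst drawn to scale along the gene, with the distance from its 5′ end in kb on the x axis and 1 circRNA per line, ordered by reads. Green bars are acceptor ends and purple bars donor ends, and the numbers at the right are circular reads over 18 hippocampus (HC) and 18 frontal cortex (FC) samples. All lines but 2 begin at the same acceptor.

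Rmst levels differed little over time against the spread of the replicates. In the hippocampus Rmst had 4.69 to 18.4 reads per 10000 circular reads (median 11.9, n = 18), and in the frontal cortex 6.82 to 23.4 (median 11.9, n = 18). Means per time point lay between 9.35 ± 4.19 (SD, n = 3) at ZT17 and 14.5 ± 3.41 at ZT9 in the hippocampus. In the frontal cortex they lay between 12.4 ± 2.81 at ZT1 and 15.5 ± 6.87 at ZT5. The share of the leading circRNA in the Rmst reads of a sample was between 62.5% and 100% in the hippocampus (median 82.7%) and between 66.7% and 100% in the frontal cortex (median 79.7%). The same circRNA led in every sample of both tissues.

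Snhg11 lies on chromosome 2 from 158375638 to 158386145 on the plus strand. GENCODE M21 lists it as protein coding and RefSeq as a long noncoding RNA. It gave 1 abundant circRNA, 660 nt long, at 158382504 to 158383163. This circRNA had 970 reads in the hippocampus against 745 in the frontal cortex and was found in all 36 samples. It made up 99.6% and 99.5% of the Snhg11 circular reads, and the other 4 circRNAs had 2 reads each in 1 sample. Both ends lie inside 1 long annotated exon and neither is an annotated exon end. The bases before its acceptor end are AG and those after its donor end are GT, the usual splice signals. The library kit does not mark strand as far as the sources used here say, so the strand of each circRNA rests on such signals. All circRNAs whose flanks could be read had them (4 of 4 in Snhg11, 5 of 5 in Meg3, 2 of 2 in Snhg14). The signals are therefore no separate evidence that this junction is a splice.

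In Snhg11, 2 samples stood apart. The hippocampus samples had 16.1 to 57.7 reads per 10000 circular reads (median 22.8), and the frontal cortex samples 14.1 to 60.4 (median 20.5). The value of 57.7 was in hippocampus ZT13 replicate 1 (39 of 6754 reads) and that of 60.4 in frontal cortex ZT9 replicate 3 (49 of 8107 reads), the samples with the fewest circular reads of each tissue. The other 2 replicates had 26.5 and 16.1 at ZT13 in the hippocampus, and 22.3 and 20.1 at ZT9 in the frontal cortex. Without these samples the highest values were 32.2 in the hippocampus against 25.0 in the frontal cortex. The part of depth in these values was not tested.

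Meg3 and Miat gave few circles or none. Meg3 lies on chromosome 12 from 109541001 to 109571726 on the plus strand. Its 9 circRNAs had 28 reads in all. In the hippocampus 6 circRNAs with 18 reads were found in 6 of 18 samples, and in the frontal cortex 4 circRNAs with 10 reads in 4 of 18 samples. The circRNA with the most reads, at 109561108 to 109561313 (206 nt, inside 1 exon), had 8 reads in 3 hippocampus samples and was listed at 0 in the frontal cortex. The circRNA at 109546430 to 109548222 had 2 reads in the hippocampus against 3 in the frontal cortex and was the only Meg3 circRNA in both. Only 1 Meg3 circRNA, with 2 reads, had both ends at annotated exon ends. The highest Meg3 level, 3.25 reads per 10000 circular reads in hippocampus ZT9 replicate 1, was 6 reads. Miat lies on chromosome 5 from 112213228 to 112229395 on the minus strand and was listed at 0 in all 36 samples. These counts do not show that Miat forms no circles, since single reads are not in the files and the level of linear Miat was not analysed here.

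Snhg14 lies on chromosome 7 from 59307924 to 59975759 on the minus strand and spans 667836 nt. It had more circRNAs than any other of the 5699 host genes of the hippocampus and the 5157 of the frontal cortex. By reads it was at rank 12 in the hippocampus (2706 reads) and at rank 9 among cortical hosts (2337 reads). The reads were spread over many circles. Of 707 circRNAs, 314 (44.4%) had 2 reads in all, and the 10 with the most reads held 23.3% of the Snhg14 reads. Found in 1 sample were 67.8% of the hippocampal and 68.1% of the cortical circRNAs. Found in at least 2 replicates of a time point were 76 of 481 in the hippocampus against 52 of 429 in the frontal cortex. Over all circRNAs listed, 5505 of 23730 and 4790 of 19811 were. The tissues shared 203 circRNAs, which is 42.2% of the hippocampal and 47.3% of the cortical ones, and these held 70.6% of the reads. These shares of circRNAs found in both tissues are near those of all circRNAs listed.

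The circles came from the snoRNA arrays. GENCODE places 70 copies of Snord116 at 59673461 to 59904848, with a median of 2527 nt from one to the next. Nearer the 3′ end, at 59344073 to 59619095, it places 136 copies of a second snoRNA type (median 79 nt long, 1871 nt from one to the next), where the Snord115 cluster is known to lie. Copies were put in the 2 families by shared sequence. Both ends lay in the Snord116 array in 176 circRNAs with 1977 reads (39.2% of the Snhg14 reads). Both lay in the second array in 493 circRNAs with 2640 reads (52.3%). A circle from one array to the other was found in 11 cases with 203 reads. Outside both arrays there were 14 circRNAs with 191 reads, most of these reads from the 5′ end of the gene. The circRNA at 59940820 to 59973650 led these, with 50 reads in the hippocampus against 52 in the frontal cortex. The reads per position are drawn in the map of Snhg14, where the profiles of the 2 tissues have peaks in the same places.

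**Figure D2:**
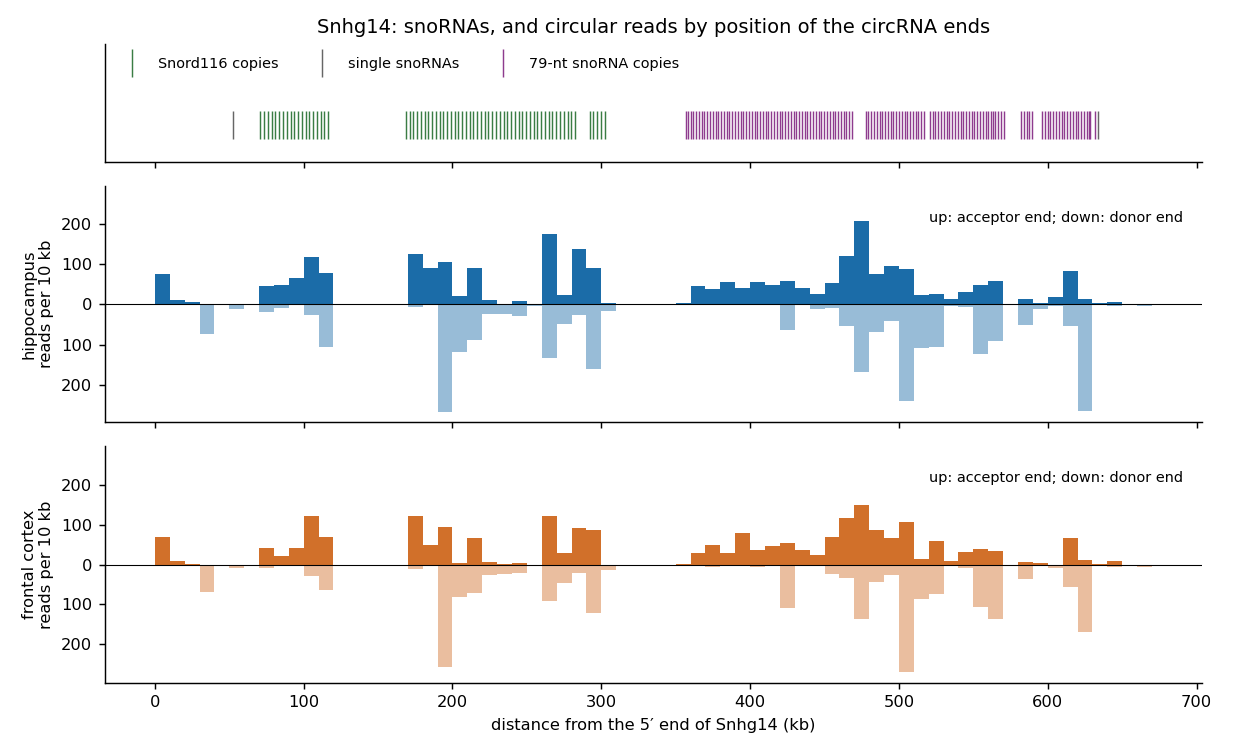
Top, snoRNA copies of Snhg14 against the distance from the 5′ end of the gene in kb (green, Snord116; purple, the 79-nt type; grey, 2 single copies). Below, circular reads per 10 kb summed over 18 samples in the hippocampus (blue) and the frontal cortex (orange), by the acceptor end (upward) and the donor end (downward) of each circRNA. Reads lie over the arrays and at the 5′ end, and few lie between them.

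Few of the ends are annotated as exon ends, but nearly all lie where an exon of the repeat would be. Both ends were annotated exon ends in 32 Snhg14 circRNAs with 412 reads, or 8.17% of the Snhg14 reads, against 90.7% of the reads of all circRNAs inside genes. The distance of each end from the next snoRNA copy downstream was therefore compared with the distances of the annotated exon ends in the same array. In the Snord116 array, 160 of 176 circRNAs (96.2% of the reads) had both ends within 2 nt of such a distance. In the second array this was so for 468 of 493 (93.1% of the reads). These distances take up 0.673% (acceptors) and 1.07% (donors) of the positions of a Snord116 repeat unit, and 1.18% and 1.02% of a unit of the second array. Since circRNA calls rest on splice signals, not every position could hold an end, and these shares are no chance rate. Copies of a repeat are alike, so the circles are not separate cases. In the Snord116 array, 85.8% of the reads had their donor 257 nt before the start (5′ end) of the next snoRNA copy and 71.9% their acceptor 403 nt before it. In the second array 80.6% of the reads had their donor at 63 nt.

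The most frequent length was that of a single repeat exon. Of the Snord116 array, 17 circRNAs were 147 nt long, with 693 reads (362 in the hippocampus against 331 in the frontal cortex). Each lay 253 to 256 nt from the nearest snoRNA and held no snoRNA, and 14 of the 17 were found in both tissues. The leading ones began at 59676338 (60 reads in the hippocampus, 82 in the frontal cortex), 59761904 (73 and 56) and 59706316 (50 and 51). For 6 of them the exon is in the transcripts, and pairs of these differed at 1 to 10 of the 147 bases (93.2% to 99.3% identical), as the 3 printed circles show. In the second array, 18 circRNAs with 566 reads held no snoRNA. The leading Snhg14 circRNA is of this kind, 1492 nt long at 59496310 to 59497801, with 165 reads in 18 hippocampus samples and 135 in 17 frontal cortex samples. The circRNA at 59355293 to 59356780 (1488 nt) had 65 and 52 reads. At the other extreme, 228 circRNAs with 923 reads spanned over 100 kb, and 657 of the 707 took in at least 1 snoRNA gene.

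**Figure D3:**
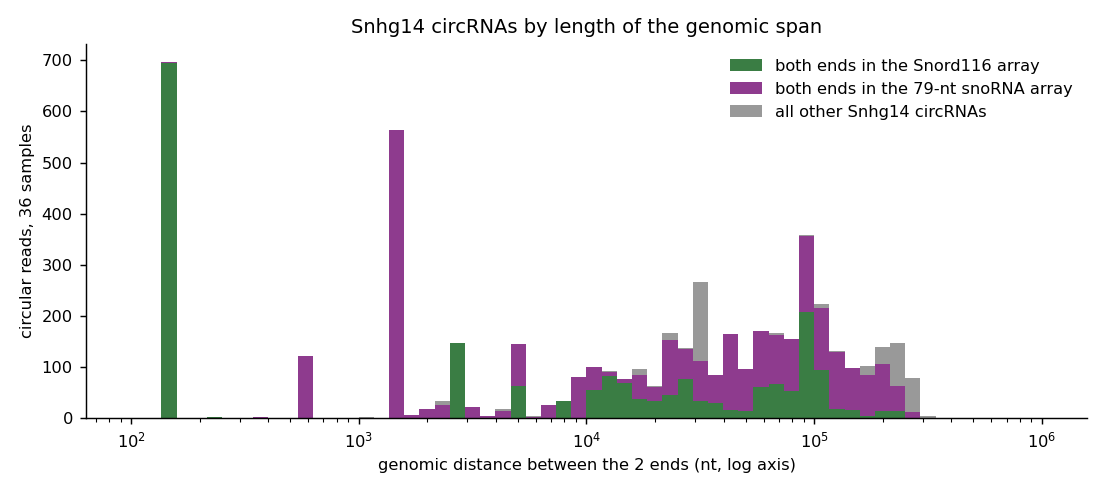
Circular reads of Snhg14 over the 36 samples (y axis) by the genomic distance between the ends of the circRNA (x axis, nt, log scale), stacked by the array that holds both ends. The tallest bar, at 147 nt, is nearly all from the Snord116 array (693 reads), and the bar near 1490 nt is from the array of 79-nt snoRNAs.

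Reads of near-identical repeat copies can be placed on the wrong copy. A 30-base junction window could be read from the transcripts for 36 Snhg14 circRNAs, and 26 of them shared theirs with another circRNA. The largest group had 11 circRNAs with the window cacctgagttaaaagGGTTGCATTCCCTTT. Sums over the gene or over an array stay the same when a circular read is moved to another copy within it. The counts of single Snhg14 circles and the number of circles depend on the copy. Whether placement on a wrong copy made reads of linear RNA count as circular was not tested. Of the Snhg14 circles seen in 1 tissue only, 1 is described here. The circRNA at 59352999 to 59451378 (98380 nt, second array) had 28 reads in 12 of 18 frontal cortex samples and was at 0 in all 18 hippocampus samples. Other circles with the same donor had 13 reads in the hippocampus against 11 in the frontal cortex, and other circles with the same acceptor had 13 against 5. It was too low for the filter on low counts. Without that filter it passed the edgeR test between tissues (adjusted p = 0.00139), as 1 of 102 member circles (0.980%) against 346 of 6656 circRNAs in all (5.2%). This circle was singled out after its values were seen. It met the rule of 2 replicates of a time point only through the frontal cortex, where it is high. The p-value is therefore no support for a difference between the tissues.

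The number of Snhg14 circles differed widely between samples. Hippocampus samples held 12 to 208 (median 41.5) and frontal cortex samples 13 to 98 (median 45.5). The lowest numbers were in the shallowest samples, and the highest, 208, was in hippocampus ZT1 replicate 3, with 73252 circular reads. Per 1000 circular reads there were 1.06 to 3.30 circles. Frontal cortex ZT17 replicate 3 held 23 circles at 21764 reads, and ZT13 replicate 1 held 43 at 14379. These 2 samples, picked as examples, had 57 and 118 Snhg14 reads. The part of depth in the numbers of circles was not tested. Different Snhg14 circRNAs over the 3 replicates numbered 263, 132, 80, 87, 114 and 79 in the hippocampus, from ZT1 to ZT21. In the frontal cortex they numbered 111, 99, 93, 126, 91 and 184 in the same order. When reads were drawn from each sample down to the depth of the shallowest one of the tissue, 271 of the 481 hippocampal and 321 of the 429 cortical circRNAs remained. Rmst had 1 to 4 circRNAs in every sample, and Snhg11 had 1 to 3.

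**Figure D4:**
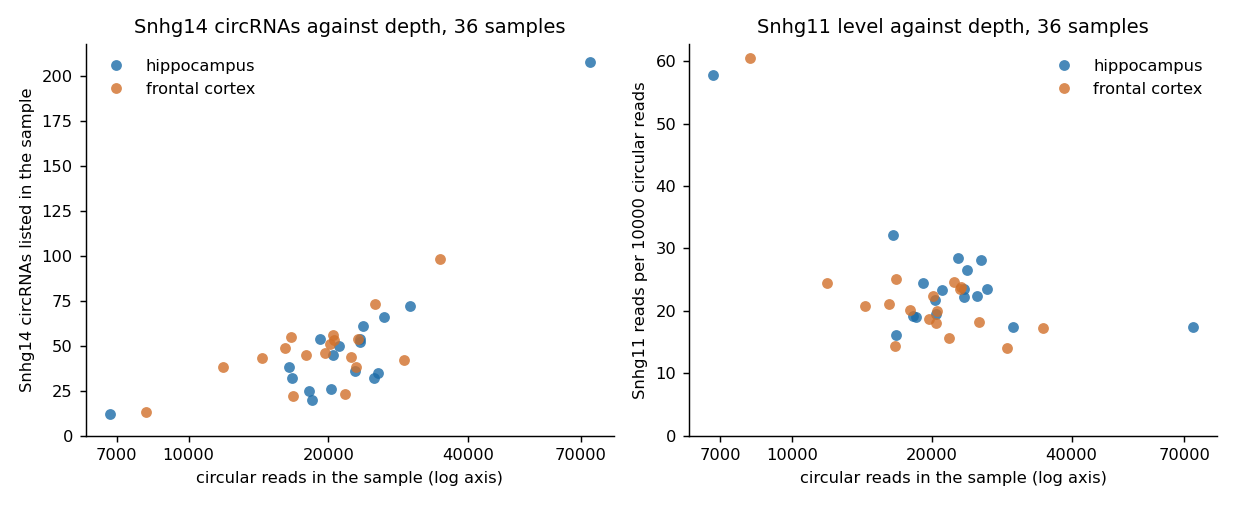
Left, Snhg14 circRNAs listed in each of 36 samples, and right, Snhg11 reads per 10000 circular reads, both against the circular reads of the sample (log axis). Blue points are hippocampus and orange points frontal cortex samples. The deepest sample lists 208 Snhg14 circRNAs, and the shallowest sample of each tissue has the highest Snhg11 level.

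The first comparison asked whether circular reads of these genes change over the 6 time points. Snhg14 varied the most, in a different order in the 2 tissues. In the hippocampus, reads per 10000 circular reads were 76.6, 78.8 and 97.9 in the ZT1 samples, 57.7, 70.0 and 71.4 in those of ZT5, and 24.9, 32.5 and 66.0 in those of ZT9. In the dark phase they were 42.9, 69.9 and 51.4 (ZT13), 60.1, 42.1 and 70.8 (ZT17), and 34.6, 33.9 and 37.9 (ZT21). The 3 samples of ZT1 were above all 15 others, and those of ZT21 were below all samples of ZT1, ZT5, ZT13 and ZT17. Cortical samples had 67.9, 89.3 and 51.9 (ZT1), 62.9, 35.2 and 90.7 (ZT5), and 72.0, 70.3 and 37.0 (ZT9) in the light phase. Dark-phase values were 82.1, 75.0 and 79.7 (ZT13), 40.1, 39.2 and 26.2 (ZT17), and 78.4, 86.2 and 78.7 (ZT21). All samples of ZT17 were below those of ZT1, ZT13 and ZT21. The value of 37.0 at ZT9 was in the shallowest cortical sample.

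These differences did not pass the test over all host genes. For Snhg14, edgeR's quasi-likelihood test of any difference among the 6 time points gave an adjusted p of 0.194 for the hippocampal and 0.669 for the cortical samples (Benjamini-Hochberg). Of the 5 genes, 3 had enough reads to be tested and 0 were called in either tissue. Before adjustment 1 gene in each tissue, Snhg14, was under 0.05. Over all host genes tested, 0.142% were called in the hippocampus (1 of 703) and 0.155% of the cortical ones (1 of 646). The calls depended on the tool, the filter and single samples. Without the filter on low counts edgeR called Snhg14 in both tissues (adjusted p = 4.80e-11 in the hippocampus, 3.20e-05 in the frontal cortex). The Snhg14 counts are the same in both fits. The filter changes only which other host genes enter the normalization, the estimate of spread and the adjustment. What made the values smaller was not tested, so they are not read as stronger evidence of a change. DESeq2 called Snhg14 in the hippocampus (adjusted p = 0.00442) and not in the frontal cortex (adjusted p = 0.114). Over the alternatives that kept all replicates or left out the deepest and shallowest samples, 0 to 9 host genes were called in the hippocampus. In the frontal cortex 0 to 8 were, and both maxima were without the filter. Without hippocampus ZT9 replicate 3 the edgeR value for Snhg14 was 0.00240, and without frontal cortex ZT9 replicate 3 it was 0.0372. Without the hippocampus samples with the most and the fewest reads (ZT1 replicate 3 and ZT13 replicate 1) the hippocampal value was 0.473. Restricted to circles at annotated exon ends, a small share of the Snhg14 reads, it was 0.998. For Rmst and Snhg11 the adjusted p was 0.999 in the hippocampus against 0.998 in the frontal cortex.

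**Figure D5:**
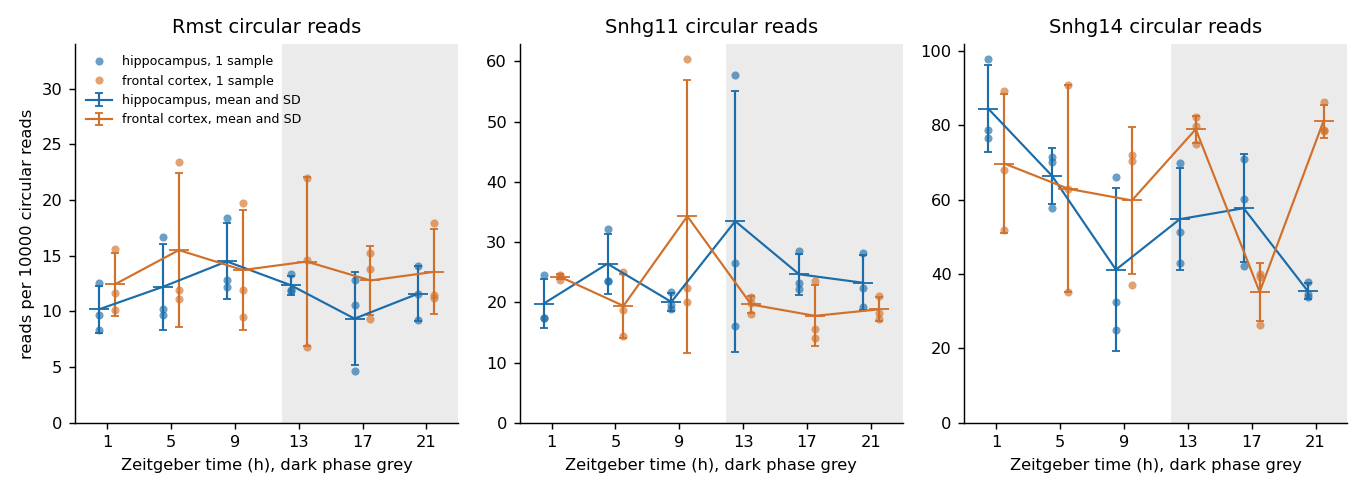
Reads per 10000 circular reads of Rmst, Snhg11 and Snhg14 (y axes from 0, different for each gene) against Zeitgeber time, with the dark phase in grey. Points are single samples, and lines join means with SD (n = 3) in the hippocampus (blue) and the frontal cortex (orange). Snhg14 is at 76.6 to 97.9 at ZT1 in the hippocampus and at 26.2 to 40.1 at ZT17 in the frontal cortex.

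Both arrays of Snhg14, which held most of its reads, took part in these differences. In the hippocampus, circles of the Snord116 array had 32.9 ± 2.98 reads per 10000 circular reads (SD, n = 3) at ZT1 and 15.1 ± 3.06 at ZT21. Circles of the second array had 45.6 ± 9.37 and 14.5 ± 4.11. In the frontal cortex the Snord116 array had 33.0 ± 5.75 at ZT13 and 14.7 ± 5.65 at ZT17, and the second array 40.8 ± 8.22 and 14.9 ± 2.03. The 147-nt circles had 11.8 ± 1.71 at ZT1 and 3.18 ± 1.33 at ZT21 in the hippocampus, and 13.8 ± 1.11 at ZT13 and 5.54 ± 1.47 at ZT17 in the frontal cortex. In the frontal cortex the whole gene was highest at ZT21 (81.1 ± 4.43, against 78.9 ± 3.60 at ZT13). There the Snord116 array had 26.9 ± 8.77, the second array 48.6 ± 8.22 and the 147-nt circles 9.91 ± 1.09. Circles outside both arrays, with few reads, had 2.15 ± 0.58 at ZT1 and 3.62 ± 3.02 at ZT21 in the hippocampus. In the frontal cortex they had 2.18 ± 2.97 at ZT13 and 3.43 ± 1.81 at ZT17. The time points were picked after the values were seen, so no test was made. By sample, the Snord116 array held 34.1% to 56.5% of the hippocampal Snhg14 reads (median 40.7%). In the frontal cortex it held 22.7% to 83.3% (median 40.1%), and the 83.3% were 25 of 30 reads in ZT9 replicate 3.

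The next comparison set the dark phase (ZT13, ZT17, ZT21) against the light phase (ZT1, ZT5, ZT9), with 9 samples each. In the hippocampus Snhg14 had 24.9 to 97.9 reads per 10000 circular reads in the light phase (median 70.0) and 33.9 to 70.8 in the dark phase (median 42.9). The log2 difference of dark from light was -0.37 (SE 0.16, adjusted p = 0.960, edgeR). In the frontal cortex the medians were 67.9 and 78.4 and the means 64.1 and 65.1, higher in the dark phase. The fitted log2 difference, from normalized counts averaged over time points on the log scale, had the opposite sign at -0.07 (SE 0.17, adjusted p = 0.992). Snhg11 differed by 0.23 (SE 0.15, adjusted p = 0.960) in the hippocampus and by -0.38 (SE 0.18, adjusted p = 0.992) in the frontal cortex. Rmst differed by -0.17 (SE 0.18) and -0.01 (SE 0.21), with adjusted p = 0.992 and 0.999. None of the 3 genes was called, and over all host genes 0% were called in either tissue. Before adjustment 1 of the 3 was under 0.05 in each tissue, Snhg14 in the hippocampus against Snhg11 in the frontal cortex. DESeq2 called none of them either.

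Snhg11 had phase differences of opposite sign in the 2 tissues, and the difference between them was tested. It was 0.63 on the log2 scale (hippocampus minus frontal cortex, SE 0.24, adjusted p = 0.867, edgeR). Without the 3 samples with the most and the fewest reads, an alternative chosen after the data were seen, it was 0.31 (SE 0.18, adjusted p = 0.800). The 2 samples with the highest Snhg11 levels are among these, one in the dark phase of the hippocampus and one in the light phase of the frontal cortex. For Snhg14 it was -0.27 (SE 0.24, adjusted p = 0.962) and for Rmst -0.14 (SE 0.29, adjusted p = 0.986). No member was called, by edgeR or DESeq2, and 0% of the 798 host genes were. Before adjustment 1 of the 3 genes, Snhg11, was under 0.05, as were 42 of all 798 host genes.

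Between the tissues none of the 3 genes passed the test, while many other host genes did. Over 18 samples each, Rmst had 11.7 ± 3.06 reads per 10000 circular reads in hippocampal and 13.7 ± 4.54 in cortical samples (SD). Its log2 difference of hippocampus from frontal cortex was -0.24 (approximate 95% interval -0.52 to 0.04, adjusted p = 0.213). Snhg14 had 24.9 to 97.9 (median 58.9) and 26.2 to 90.7 (median 71.1), a log2 difference of -0.21 (-0.45 to 0.03, adjusted p = 0.196). Snhg11 had 24.6 ± 9.31 and 22.4 ± 10.1, a log2 difference of 0.14 (-0.10 to 0.37, adjusted p = 0.422). These tests are edgeR's quasi-likelihood test on 36 samples. None of the 3 was called by edgeR or DESeq2, and of all 798 host genes tested 31.5% were called. Before adjustment none of the 3 was under 0.05, against 317 of the 798. The median log2 difference of the 3 genes was -0.21, and that of all host genes 0.05. Without hippocampus ZT9 replicate 3, Snhg14 differed by -0.30 with an adjusted p of 0.0476.

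After the filter on low counts, 3 member circRNAs were tested over time and phase in each tissue, the leading ones of Rmst, Snhg11 and Snhg14. Between the tissues 4 were tested, with the 147-nt circle at 59676338 as the fourth. None was called in any comparison. Over all circRNAs tested, 0% were called over time in the hippocampus against 0.193% in the frontal cortex, 0% for phase in either tissue, 30.4% between the tissues and 0% for the tissue difference of the phases. Over time, adjusted p-values of the 3 circles were 0.999 in the hippocampus against 0.996 in the frontal cortex. Before adjustment none was under 0.05 over time, for phase or between tissues. For the tissue difference of the phases 1 of the 4 was, the Snhg11 circle (log2 0.52, SE 0.24, adjusted p = 0.922, edgeR). So were 29 of all 710 circRNAs tested. DESeq2 called none of the member circles. Between the tissues the log2 differences of the leading circles were -0.17 (SE 0.14) for Rmst, 0.13 (SE 0.12) for Snhg11 and -0.18 (SE 0.26) for Snhg14. For the 147-nt circle it was -0.70 (SE 0.44, adjusted p = 0.253).

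Other long noncoding hosts were set beside these genes. Of a list of 37, 35 are in the annotation, 19 had circles in one tissue or both and 16 had none. Most reads came from Pvt1, a transcript next to Myc, with 1020 reads in the hippocampus against 541 in the frontal cortex. Malat1, a nuclear RNA, had 273 and 147, and Ftx, from the X inactivation centre, had 59 and 38. Snhg14 had more reads than any of them in both tissues. Of the list, 2 genes had enough reads to be tested. Pvt1 was higher in the hippocampus (log2 difference 0.62, SE 0.11, adjusted p = 2.33e-05, edgeR) and Malat1 was not called (0.76, SE 0.32, adjusted p = 0.0650). Neither was called over time or for phase.

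The host genes whose circular reads varied most like those of each gene were found by the Pearson correlation of log2 normalized counts over the 36 samples, given as a description. The samples share their depth and tissue in this measure. For Snhg14 they included C230004F18Rik, the noncoding host of Cdr1as (r = 0.60), and Ctnnd2 (0.55), a delta catenin. For Snhg11 they were Setbp1 (0.64), Extl3 (0.61) and Fars2 (0.61). For Rmst they were the neuregulin gene Nrg1 (0.48), Rimbp2 (0.47) and D430041D05Rik (0.46).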

How the data were processed

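The authors mapped reads to GRCm38 with BWA, found head-to-tail junctions with CIRI2 and deposited a table of circular read counts per circRNA and sample for each tissue. The deposited counts are whole numbers without normalization or pooling. One column of the hippocampus table that no sample label describes (1 column) was not used, and the 4 circRNAs found only there were left out.

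Ends were compared with GENCODE M21 genes, exons and transcripts. Reads of all circRNAs inside a gene on its strand were summed per host gene. Host genes and circRNAs (those found in at least 2 replicates of a time point) went into edgeR 4.0.16 (R 4.3.3, with TMM factors, default filter on low counts, quasi-likelihood test, Benjamini-Hochberg adjustment over all features, threshold 0.05). TMM rests on circular reads alone. Reads per 10000 are shares of all circular reads of a sample, without TMM. The scripts were tested on simulated data. DESeq2 1.42.0, Python 3.11.15, pandas 2.3.3, numpy 2.4.6 and matplotlib 3.10.9 were also used.

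The text names the 5 hosts, up to 3 circRNAs with the most reads per gene and tissue and any past the threshold, up to 3 other noncoding hosts, and for each tested gene the 3 hosts with the most similar variation. One such host of Snhg14 and the summed cortical marker list are not reported here. The members and the lists were chosen with earlier results of these data known. Snhg14 circle classes, printed sequences and any further Rmst and Snhg14 circRNAs named were chosen after their values were seen.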

Additional observations from a re-analysis of the deposited data

Results flagged for a closer look

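Groups of 9 light or 9 dark samples of a tissue were searched for a sample far from the others, 12 groups for the 3 tested genes and 12 for their leading circles. Chance marks about 1 group in 20. Snhg11 had such samples in 3 of its 4 groups. They were hippocampus ZT5 replicate 1 in the light phase (32.2 reads per 10000 circular reads), hippocampus ZT13 replicate 1 in the dark phase (57.7) and frontal cortex ZT9 replicate 3 in the light phase (60.4). The Snhg11 circle at 158382504 to 158383163, which holds all Snhg11 reads of these samples, had the same values (32.2, 57.7 and 60.4) and was marked in the same groups. The samples with 57.7 and 60.4 had the fewest circular reads of their tissues (6754 and 8107), and the part of depth in this was not tested.

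Some circRNAs lie at these genes outside the rule for members. On the other strand, 5 circRNAs with 15 reads lay inside Meg3 and 4 with 8 reads inside Snhg14. With 1 end outside the gene, there were 10 circRNAs with 140 reads at Snhg14 and 2 with 4 reads at Snhg11. RefSeq draws Snhg14 longer at both ends than GENCODE M21 does.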

How the results depend on the processing

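Under the alternatives other than a left-out replicate, 350 values were recomputed. These were library totals alone, RLE size factors, no filter on low counts, DESeq2 and the replicate block. Others left out the samples with the most and the fewest reads, or kept only circRNAs in 2 replicates or at annotated exon ends. The rest were other rules for listing a circRNA. Of the 350 values, 334 were rated the same. For a test this meant the same side of the threshold and, where it has one, the same direction. For a number of called members or listed circRNAs it meant an equal or similar number. The number of called members rose from 0 to 1 in 5 cases. Over time in the hippocampus this 1 was Snhg14 without the filter (adjusted p = 4.80e-11), with DESeq2 (0.00442) and with the replicate block (0.0464). Over time in the frontal cortex it was Snhg14 without the filter (3.20e-05). Between the tissues it was the circle at 59352999 to 59451378 without the filter. The replicate block changed no other call. The labels tie no number to an animal, litter or day. Deviations of same-numbered samples correlated at -0.0250 on average between the tissues and -0.00536 between time points. Such averages of sparse counts cannot show whether same-numbered samples share an animal or a batch, so this stays unknown. With 1 replicate left out, called members ranged from 0 to 1 for host genes over time in each tissue and between tissues. The 1 was Snhg14, without hippocampus ZT9 replicate 3 (time and tissue) or frontal cortex ZT9 replicate 3 (time), and the count was 0 in all other comparisons. The Rmst difference of dark from light in the frontal cortex turned to 0.038 for the gene and 0.063 for its leading circle without the filter. With 1 replicate left out it ranged from -0.17 to 0.12 for the gene, above 0 in 8 of 18 cases, and from -0.13 to 0.14 for the circle, above 0 in 6 of 18. That of Snhg14 ranged from -0.19 to 0.022 (above 0 without frontal cortex ZT5 replicate 3), and that of its leading circle from -0.35 to 0.060 (above 0 without the same sample or ZT1 replicate 2). The tissue difference of the phases ranged from -0.33 to 0.014 for Rmst (above 0 without frontal cortex ZT13 replicate 3) and from -1.27 to 0.019 for the circle at 59676338 (above 0 without hippocampus ZT9 replicate 3). None of these values was called, and the cause was not tested.

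Members listed fell from 497 to 82 in the hippocampus and from 442 to 57 in the frontal cortex when 2 replicates of a time point were required, and to 19 in each with 3. Over all circRNAs listed, 23730 fell to 5505 and 19811 to 4790 when 2 replicates were required. Thinned to the smallest total, 283 and 330 members remained. Over all features, calls rose without the filter to 9 and 8 host genes over time (hippocampus and frontal cortex, 1 each with it), 2 for phase in the hippocampus (0) and 2 for the tissue difference of the phases (0). For circRNAs they rose to 14 and 12 over time (0 and 1), 4 for phase in the hippocampus (0), 346 between tissues (216) and 2 for the tissue difference of the phases (0). At this depth only 3 or 4 members passed the filter on low counts, so most single circles were not tested.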
